A study of Mus musculus with 8 samples.

Results

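The genes described here are 10 genes of the hypoxia-inducible factor (HIF) system, measured in the outer medullary collecting duct of C57BL/6J mice, an inbred laboratory strain. They were chosen by gene symbol and all 10 were among the 55291 symbols of the deposited tables. They are the oxygen-labile HIF subunits Hif1a and Epas1, the prolyl hydroxylases Egln1, Egln2 and Egln3, the ubiquitin ligase subunit Vhl, and 4 genes known to be induced by hypoxia, Ndrg1, Bnip3, Bnip3l and Adm. Before dissection the mice were kept for 3 days on a diet with 0.3% salt (called normal salt here) or 3% salt (high salt), with 4 libraries per diet and no other treatment named. Each library held 100 to 120 ducts that were dissected from the enzyme-digested kidneys of 1 mouse. Recovered totals were 64.8 to 94.1 M estimated counts per library. Libraries are named by diet and by the number in their column name.

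HIF is a pair of proteins, an alpha subunit (Hif1a or Epas1) and the partner Arnt. In oxygen the EGLN enzymes hydroxylate prolines of the alpha subunit, VHL binds the hydroxylated form, and the subunit is ubiquitinated and degraded. When oxygen falls, the subunit escapes and genes such as Egln3, Ndrg1, Bnip3 and Adm are transcribed. This control acts on protein, so the level of Hif1a RNA is not a measure of HIF activity. The outer medulla is known as a region of the kidney with low oxygen tension and high oxygen demand.

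None of the 10 genes passed the test between diets, but Egln3 and Ndrg1 were higher, and Bnip3 and Bnip3l lower, in every high-salt library than in every normal-salt library. Egln3 was measured at 14.5 ± 2.57 CPM (estimated counts scaled to a common library total) under normal salt and 30.7 ± 8.55 CPM under high salt (SD, n = 4 each). Ndrg1 had 1027 ± 106 and 1432 ± 101 CPM, and Bnip3 had 70.3 ± 9.30 and 51.7 ± 5.03 CPM. The mean level under high salt differed from normal salt by -9.46% for Epas1 and 7.29% for Egln2, with Hif1a, Vhl and Egln1 between them. By limma, 0 of the 10 were called at an adjusted p under 0.05, where 0.0821% of 13401 genes tested were called (0.0298% higher and 0.0522% lower). Before adjustment, p was under 0.05 for 3 of the 10 (10.3% of all genes), with 2 higher (5.95% of all genes) and 1 lower (4.37%). With limma's voom on the estimated counts 0 were called and 3 had an unadjusted p under 0.05, as had 1389 of all 13401 genes. The diets did not overlap in CPM for 4 of the 10 genes, against 6.4% of all genes tested, with 2 higher (3.66% of all genes) and 2 lower (2.75%). The 10 genes were chosen with results of these data known, so that share is a description of them. Their median log2 fold change was -0.05, beside 0.01 for all genes.

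**Figure D1:**
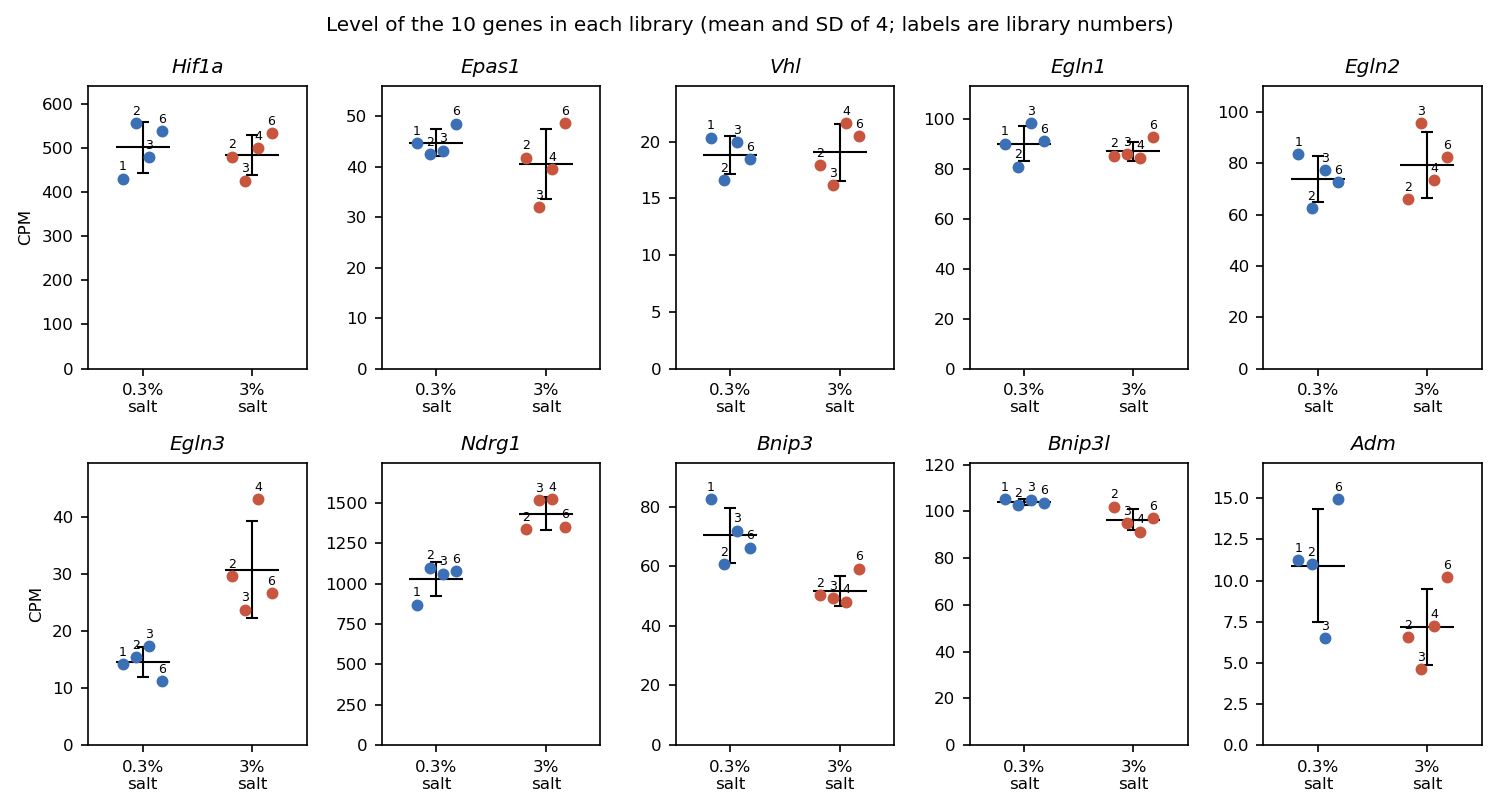
Level of each of the 10 genes in CPM (vertical axis, from 0) in the 4 libraries fed 0.3% salt (blue) and the 4 fed 3% salt (red), with the mean and SD of each diet and the library numbers. Points of the diets do not overlap for Egln3, Ndrg1, Bnip3 and Bnip3l, and they overlap for the other 6.

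The prolyl hydroxylases differed in level and in their relation to diet. Egln1, known as the main oxygen sensor of most cells, was at 90.3, 81.0, 98.5 and 91.1 CPM in normal-salt libraries 1, 2, 3 and 6, and at 85.4, 85.9, 84.6 and 92.7 CPM in high-salt libraries 2, 3, 4 and 6. The diets overlapped, with a log2 fold change of -0.05 (95% interval -0.24 to 0.14, limma adjusted p = 0.894). It was -0.0044 without normal-salt library 3, -0.097 without normal-salt library 2 and -0.077 without high-salt library 6. Egln2, whose transcript is not known as a general hypoxia target, was at 83.4, 62.4, 77.3 and 72.5 CPM under normal salt and 65.9, 95.7, 73.3 and 82.3 CPM under high salt. Its highest and its second lowest value both came from high-salt libraries, and its log2 fold change was 0.09 (95% interval -0.19 to 0.38, limma adjusted p = 0.849). That value was 0.00057 without high-salt library 3, 0.017 without normal-salt library 2, 0.155 without normal-salt library 1 and 0.178 without high-salt library 2.

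Egln3, the hydroxylase best known for its induction by HIF itself, was the member with the largest log2 fold change. Its level was 14.1, 15.4, 17.4 and 11.2 CPM in normal-salt libraries 1, 2, 3 and 6, and 29.6, 23.7, 43.1 and 26.6 CPM in high-salt libraries 2, 3, 4 and 6. The lowest high-salt library lay above the highest normal-salt library, and high-salt library 4 stood above the other 3 of its diet. On the log2(CPM + 1) scale the difference was 1.01 (SE 0.19, 95% interval 0.60 to 1.42), and Egln3 ranked 37 of 13401 genes by p. Its limma adjusted p was 0.0815, with 0.0384 to 0.376 over 21 alternative settings. It was called in 2 of those, with array quality weights (adjusted p = 0.0384) and with the endothelial marker mean as a covariate (adjusted p = 0.0439).

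Beside the higher Egln3 values, 9 principal cell markers summed to 19205 to 24312 CPM in the normal-salt libraries and to 27374 to 31987 CPM in the high-salt libraries, and 8 intercalated cell markers to 7221 to 7879 and 5774 to 6869 CPM. The collecting duct is made of these cells, and none of the 17 markers was at 0. Neither sum overlapped between diets, but without the water channels Aqp2 and Aqp3 the other 7 principal cell markers summed to 8883 to 10489 and 8684 to 9450 CPM, which overlapped (a split chosen after the values were seen). Of the 9 principal cell markers 4 had higher and 5 lower means under high salt, and 1, Scnn1a (lower), was called. Of the principal cell markers 3 were higher in all 4 high-salt libraries (Aqp2, Aqp3 and Kcnj1), while Scnn1a and Scnn1b, sodium channel subunits of the same cells, were lower in all 4 high-salt libraries. Of the 8 intercalated cell markers 1 had a log2 fold change above 0 and 7 below. Only 3 of them were lower without overlap, and 0 were called. Rhcg had 1934 ± 226 and 1307 ± 85.7 CPM under normal and high salt. Slc4a1, the most abundant of the 8, was level at 2709 ± 525 and 2722 ± 443 CPM. More cells of a type and more RNA per cell cannot be told apart in these libraries, and the part of these sums in the Egln3 values was not tested.

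Sequence upstream of the RefSeq transcript start (RefSeq on GRCm38.p6, the build also called mm10) was available for 7 of the 10 genes. Epas1, Ndrg1 and Bnip3l are named only. The 250 bases before each start were searched on both strands for ACGTG and GCGTG, the cores of the hypoxia response element as it is usually written, with overlapping matches counted separately. Of 32851 such windows 16.6% held ACGTG, 28.2% held GCGTG and 38.6% held either, while 16.7% held at least 2 matches and 6.58% at least 3. The windows of Egln3 and Bnip3 are shown because these genes had separate diets in opposite directions, and that of Egln2 because it is the paralogue of Egln3 with the highest level in TPM. They are on the minus strand, at chr12:54203875-54204124 (Egln3), chr7:27166803-27167052 (Egln2) and chr7:138909520-138909756 (Bnip3, without the 13 bases that GENCODE places in the transcript). They read 5′ to 3′, with capitals at the matches.
Egln3: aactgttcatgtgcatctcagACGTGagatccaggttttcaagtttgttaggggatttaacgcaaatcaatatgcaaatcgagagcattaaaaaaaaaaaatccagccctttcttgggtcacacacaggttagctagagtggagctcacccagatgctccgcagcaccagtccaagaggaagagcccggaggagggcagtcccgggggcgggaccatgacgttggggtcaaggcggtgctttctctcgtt
Egln2: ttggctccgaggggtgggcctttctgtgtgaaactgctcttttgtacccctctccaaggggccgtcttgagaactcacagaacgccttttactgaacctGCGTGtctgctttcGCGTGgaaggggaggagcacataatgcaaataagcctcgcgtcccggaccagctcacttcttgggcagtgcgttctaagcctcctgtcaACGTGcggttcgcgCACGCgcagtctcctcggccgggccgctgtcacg
Bnip3: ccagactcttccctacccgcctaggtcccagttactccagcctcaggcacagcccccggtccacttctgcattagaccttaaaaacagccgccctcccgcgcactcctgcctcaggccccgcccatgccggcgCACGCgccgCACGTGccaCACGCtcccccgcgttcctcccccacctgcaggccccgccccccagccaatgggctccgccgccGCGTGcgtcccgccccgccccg
The Egln3 window held 1 match, starting 229 bases before the transcript start. The Egln2 window held 4 matches, starting 151, 137, 48 and 34 bases before the start, and Egln2 has another window with 1 match. The Bnip3 window held 5, starting 117, 108, 107, 99 and 35 bases before the start, of which 2 form the palindrome that reads CACGTG on both strands. Windows of Hif1a, Egln1 and Adm held 3, 2 and 2 matches, and that of Vhl held 0. The Hif1a window and the other Egln2 window lay wholly within the gene that GENCODE annotates, and the Egln1 window had 180 bases outside it. The GC content of the windows was 50.8% for Egln3, 59.2% for the Egln2 window shown, 72.4% for Bnip3 and 86% for Egln1. The shares over all windows were not matched for it. A match is a string of letters, not a binding site, and these windows do not cover introns or distant enhancers.

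In TPM (a level per library that takes transcript length into account) Egln3 was the smallest share of the hydroxylase transcripts in every library. It made up 7.28%, 9.89%, 9.20% and 6.60% of the summed TPM of Egln1, Egln2 and Egln3 in normal-salt libraries 1, 2, 3 and 6, and 16.8%, 11.6%, 21.6% and 13.6% in high-salt libraries 2, 3, 4 and 6. Egln2 was the largest share, at 52.0% ± 2.78 and 49.6% ± 5.11 (SD, n = 4 each), and Egln1 had 39.7% ± 1.99 and 34.6% ± 2.66. Together the 3 genes had 108 ± 7.82 TPM on the normal-salt diet and 121 ± 6.96 TPM on the high-salt diet. The shares follow from the levels given above and were not tested.

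**Figure D2:**
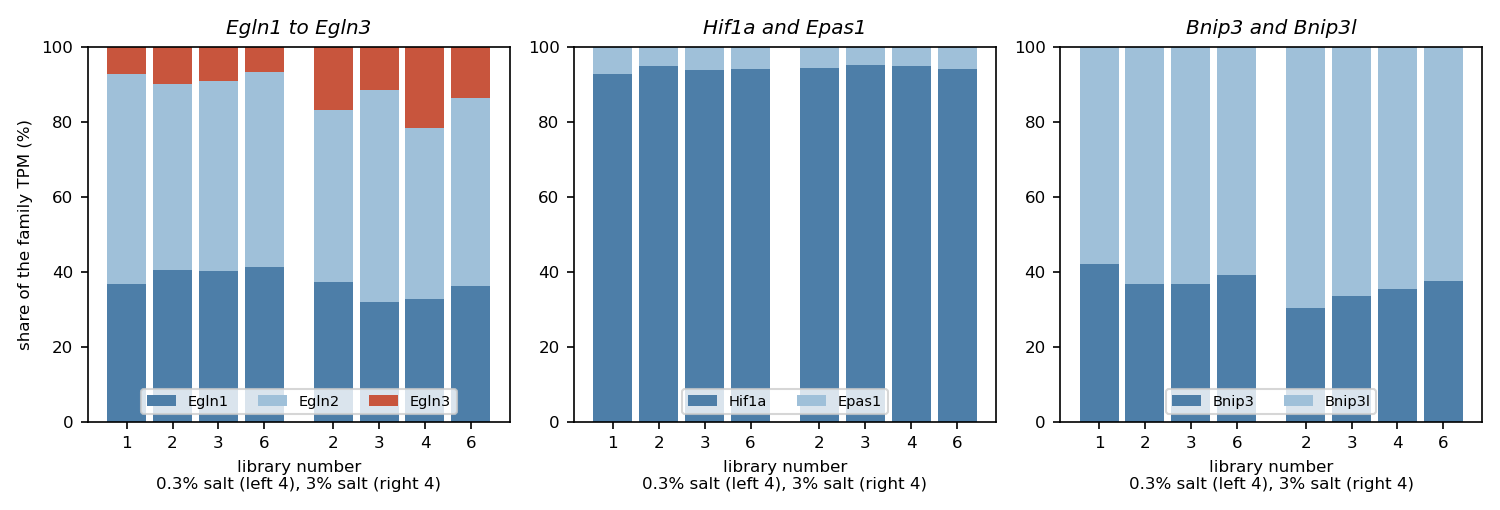
Share of the summed TPM of a gene family (vertical axis, percent) taken by each member in each library, with normal-salt libraries on the left and high-salt libraries on the right of each panel. Egln3 (red) took 6.60% to 9.89% under normal salt and 11.6% to 21.6% under high salt, while Hif1a took 92.8% or more of the pair with Epas1 in every library.

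The HIF alpha subunits did not separate by diet. Hif1a was at 431, 558, 481 and 540 CPM in normal-salt libraries 1, 2, 3 and 6 and at 481, 426, 500 and 534 CPM in high-salt libraries 2, 3, 4 and 6. Its log2 fold change was -0.05 (95% interval -0.29 to 0.20, limma adjusted p = 0.924), and the sign turned in 5 of 21 alternative settings, among them leaving out library 2 of the normal-salt mice (0.0057) or library 3 of the high-salt mice (0.014). Leaving out 1 library at a time gave -0.12 (normal-salt library 1) to 0.014. Epas1, the subunit best known in the kidney from endothelial and interstitial cells, was at 44.7, 42.5, 43.2 and 48.5 CPM under normal salt and at 41.7, 32.0, 39.5 and 48.7 CPM under high salt. Its lowest value, in high-salt library 3, and its highest, in high-salt library 6, came from the same diet. The difference on the log2 scale was -0.15 (95% interval -0.43 to 0.12, limma adjusted p = 0.73). It was -0.05 without high-salt library 3 and -0.24 without high-salt library 6. The 10 endothelial markers, none at 0, summed to 226 to 342 CPM in normal-salt and 204 to 332 CPM in high-salt libraries. The lowest sum was also in high-salt library 3, and the highest in normal-salt library 6 (Epas1 48.5 CPM). Other libraries differed. High-salt library 6, the highest in Epas1, had a sum of 269 CPM, and high-salt library 4 had 332 CPM at 39.5 CPM of Epas1. With the endothelial marker mean as a covariate the Epas1 difference was -0.11 (limma adjusted p = 0.705). With that of the thick ascending limb markers it was -0.02 (adjusted p = 0.997). In TPM, Hif1a had 199 ± 42.1 and 199.6 ± 18.9 and Epas1 had 12.6 ± 1.29 and 11.5 ± 1.97 under normal and high salt (SD, n = 4 each).

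Vhl, the substrate-binding subunit of the ligase that marks hydroxylated HIF for degradation, was at 20.4, 16.6, 19.9 and 18.5 CPM under normal salt and at 17.9, 16.1, 21.7 and 20.5 CPM under high salt. The diets overlapped over most of their range. Its log2 fold change was 0.01 (95% interval -0.26 to 0.28, limma adjusted p = 0.986), with a sign that turned in 6 of 21 alternative settings, among them those without normal-salt library 2, high-salt library 4 and high-salt library 6. Leaving out 1 library at a time gave -0.051 to 0.083.

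Among the hypoxia-induced members, Ndrg1, a cytoplasmic stress-response protein, was the most abundant. Its level was 869, 1099, 1060 and 1077 CPM in normal-salt libraries 1, 2, 3 and 6, and 1335, 1517, 1522 and 1353 CPM in high-salt libraries 2, 3, 4 and 6. Every high-salt library lay above every normal-salt library, in CPM and in TPM, and normal-salt library 1 was the lowest of all. High salt was above normal salt by a log2 fold change of 0.48 (SE 0.11, 95% interval 0.23 to 0.73, limma adjusted p = 0.155), and without normal-salt library 1 it was 0.41 (adjusted p = 0.0855). The adjusted p was 0.0532 to 0.474 over 21 alternative settings.

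Bnip3 and its paralogue Bnip3l are proteins of the outer mitochondrial membrane that recruit the autophagy machinery to mitochondria. Bnip3 was at 82.4, 60.6, 72.0 and 66.2 CPM under normal salt (libraries 1, 2, 3 and 6) and at 50.3, 49.3, 48.1 and 59.1 CPM under high salt (libraries 2, 3, 4 and 6). All 4 high-salt values lay below the normal-salt values, with 59.1 and 60.6 CPM next to each other. High salt stood at a log2 fold change of -0.43 (SE 0.11, 95% interval -0.68 to -0.18, limma adjusted p = 0.18), and without normal-salt library 1, which had the highest value, it was -0.35 (adjusted p = 0.154). Transcripts of 5 other annotated genes aligned to Bnip3 over at least 200 bases at 95% identity or more. The counting could split reads among them, and their mean levels were 0.00951 to 0.544 CPM.

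Bnip3l varied least among the members under normal salt, at 105, 103, 105 and 104 CPM, and was at 102, 94.8, 91.4 and 97.1 CPM under high salt. The groups did not overlap in CPM but were close, and they overlapped in TPM, where the log2 fold change was -0.07. In CPM its log2 fold change was -0.11 (95% interval -0.28 to 0.05, limma adjusted p = 0.66). The pseudogene Bnip3l-ps, 99.25% identical over 663 bases, was listed at a mean of 7.28 CPM, so the Bnip3l values are uncertain by reads assigned to it. Bnip3 took 38.7% ± 2.54 of the summed TPM of the pair under normal salt and 34.2% ± 3.08 under high salt, and the libraries overlapped.

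Adm encodes adrenomedullin, a vasodilator peptide. It was at 11.2, 11.0, 6.49 and 14.9 CPM in normal-salt libraries 1, 2, 3 and 6, and at 6.57, 4.62, 7.24 and 10.2 CPM in high-salt libraries 2, 3, 4 and 6. It had the largest relative spread of the 10 genes, and normal-salt library 3 lay within the high-salt range. Against normal salt the log2 fold change was -0.54 (SE 0.25, 95% interval -1.10 to 0.02, limma adjusted p = 0.501). Adding the mean of the thick ascending limb markers to the fit gave -0.21 (adjusted p = 0.939). The smallest estimated count behind a member's value, that of Adm in high-salt library 3, was 347.

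**Figure D3:**
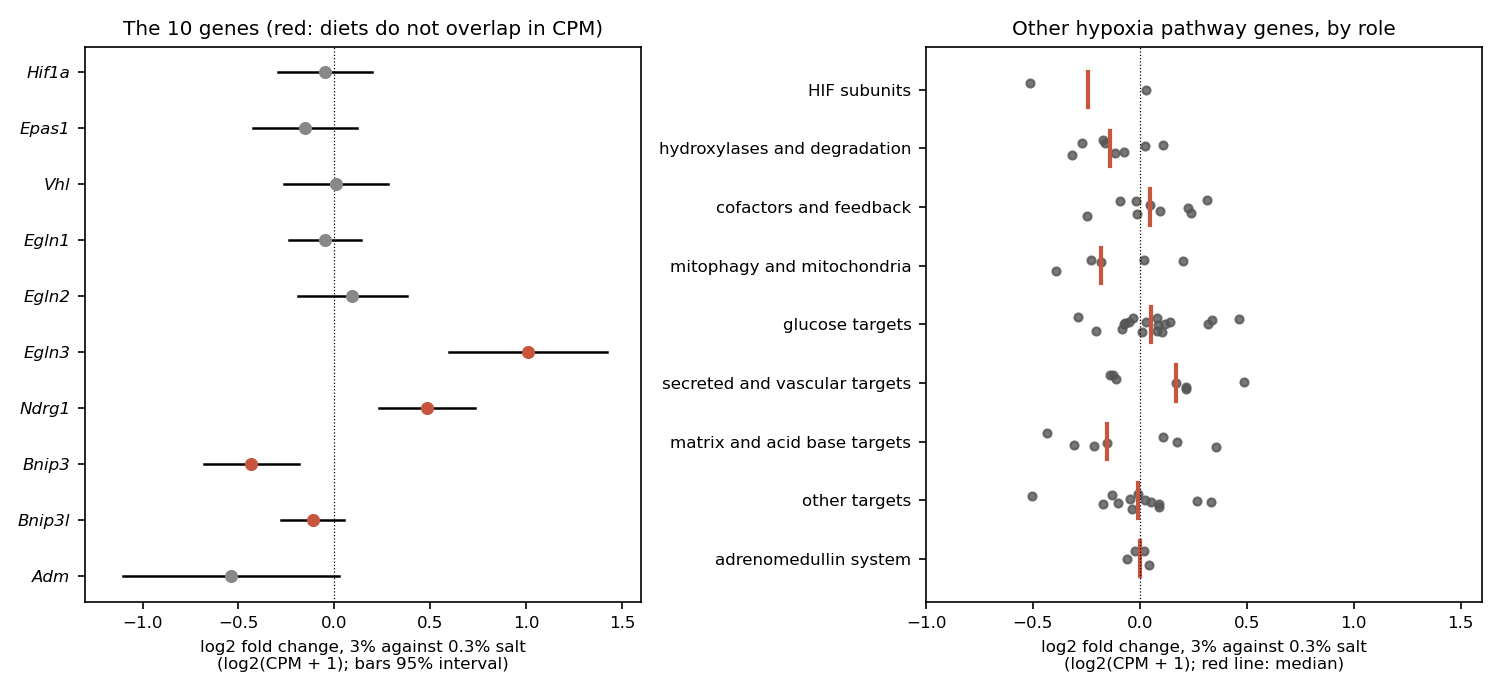
Log2 fold change of high against normal salt on the log2(CPM + 1) scale (horizontal axes). Left, the 10 genes with 95% intervals from limma, in red where the diets do not overlap in CPM; Egln3 lies at 1.01, Ndrg1 at 0.48 and Bnip3 at -0.43. Right, the 73 other hypoxia pathway genes tested, by role, with the median of each role as a red line.

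In order of mean TPM over the 8 libraries the members ran from Ndrg1 (692) through Hif1a (199.5), Bnip3l (133), Bnip3 (76.3), Egln2 (58.1), Egln1 (42.3), Egln3 (14.0), Epas1 (12.0) and Adm (11.9) to Vhl (11.5). Ndrg1 was above Hif1a, Hif1a above Bnip3l, Bnip3l above Bnip3, Egln2 above Egln1 and Egln1 above Egln3 in 8 of 8 libraries, and Bnip3 was above Egln2 in 7. Among the 4 lowest the order differed by diet. Egln3 was below Epas1 and Vhl in all 4 normal-salt libraries and above both in all 4 high-salt libraries, at mean levels of 8.89 ± 1.71 and 19.1 ± 5.16 TPM (SD, n = 4 each). Epas1 was above Adm in 1 normal-salt and 4 high-salt libraries, and Adm above Vhl in 3 and 1, so these neighbours did not separate over all 8 libraries. The ranges over libraries overlapped for Hif1a and Bnip3l and for Bnip3 and Egln2 as well. Ndrg1 was higher in mean TPM than 98.6% of the genes tested, and Vhl than 37.0%.

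Other genes of the pathway were taken from a list of 82 that the files held, of which 73 passed the filter on low values. By limma 0 of 73 were called (0.0821% of all genes). At an unadjusted p under 0.05, 1 was higher (5.95% of all genes) and 4 were lower (4.37%). In either direction that was 6.85% of the 73, beside 10.3% of all genes. Of the 73, 36 had a log2 fold change above 0 and 37 below. By voom 0 were called and 6 had an unadjusted p under 0.05, as had 1389 of all 13401 genes. Their median log2 fold change was -0.01. The diets did not overlap for 3 of the 73, all lower (2.75% of all genes were lower without overlap).

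None of the other HIF subunits or degradation genes had an unadjusted p under 0.05. Arnt, the partner of both alpha subunits, had 61.7 ± 8.75 and 62.5 ± 3.34 CPM under normal and high salt (SD, n = 4 each, limma adjusted p = 0.96), and Arnt2 had 3.04 ± 0.529 and 2.82 ± 3.76 CPM (adjusted p = 0.778), with high-salt libraries from 0.228 to 8.41 CPM. Hif3a was below the level tested, at 0.0637 to 0.434 CPM. Of 8 genes of hydroxylation and degradation other than the members, 6 had a log2 fold change below 0 and the smallest limma adjusted p was 0.674. Among these were Elob and Rbx1, subunits of the VHL ligase, with log2 fold changes of -0.07 and -0.16, and Siah1a and Siah2, ligases known to target EGLN proteins, with -0.17 and -0.32. Of 9 cofactors and feedback genes 5 had a log2 fold change above 0, with Bhlhe40, a transcriptional repressor, at 205 ± 61.9 and 262 ± 95.3 CPM, Ep300, a coactivator of HIF, at 152 ± 48.0 and 172 ± 6.57 CPM, while Cited2, which competes for that coactivator, was at 229 ± 56.9 and 234 ± 90.3 CPM (-0.02). The Ndrg1 paralogue Ndrg2 had 99.6 ± 22.3 and 84.8 ± 25.8 CPM (limma adjusted p = 0.733).

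Mitophagy and mitochondrial genes of the pathway list lay below a log2 fold change of 0 in 3 of 5 tested. Pdk1, the kinase that holds pyruvate dehydrogenase inactive, was at 66.3 ± 9.52 and 50.2 ± 6.68 CPM (log2 fold change -0.39, limma adjusted p = 0.29). Fundc1, another mitophagy receptor, was at 54.9 ± 2.38 and 46.7 ± 2.69 CPM, and like Bnip3 it did not overlap between diets (-0.23, adjusted p = 0.369). Higd1a had -0.18 and Fam162a 0.20.

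Glucose uptake and glycolysis genes lay above a log2 fold change of 0 in 11 of 18 tested. Pfkl, the liver-type phosphofructokinase, was at 245 ± 18.4 and 200 ± 7.89 CPM without overlap (log2 fold change -0.29, limma adjusted p = 0.216). Pfkfb3, which makes the activator of phosphofructokinase, was at 207 ± 40.5 and 256 ± 23.2 CPM (0.32, adjusted p = 0.446), and Ldha, a lactate dehydrogenase subunit, at 676 ± 127 and 848 ± 108 CPM (0.34, adjusted p = 0.487). The abundant Aldoa and Pkm had log2 fold changes of 0.01 and 0.12.

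Of 7 secreted targets tested, Vegfa, the vascular growth factor, had 285 ± 32.1 and 262 ± 36.1 CPM (log2 fold change -0.13), Edn1 0.49 and Igfbp3 -0.14, with adjusted p by limma of 0.631 or more. Epo, erythropoietin, was at 0 in all 8 libraries, which allows up to 0.0319 to 0.0463 CPM per library (3 counts, counting error only). Among matrix and acid-base targets Car12, a membrane carbonic anhydrase, was at 840 ± 140 and 618 ± 75.4 CPM without overlap (-0.44, limma adjusted p = 0.262), and its relative Car9, the best known carbonic anhydrase target of HIF, was at 0.325 CPM or less. The collagen hydroxylases P4ha1 and P4ha2 had -0.15 and 0.36, and Plod2 had 0.11. Among other targets Ddit4 had 580 ± 42.4 and 618 ± 65.5 CPM, Mif 172 ± 49.4 and 203 ± 24.7 CPM, Ankrd37 3.63 ± 1.16 and 4.83 ± 1.51 CPM, and Tfrc, the transferrin receptor, 125 ± 60.2 and 89.7 ± 50.4 CPM, none with a limma adjusted p under 0.648.

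For the peptide made from Adm, the receptor Calcrl was at 5.09 ± 1.98 and 4.75 ± 1.45 CPM and its partners Ramp2 and Ramp3 at 5.37 ± 1.09 and 5.32 ± 1.38 and at 4.46 ± 0.458 and 4.67 ± 0.950 CPM. Pam, the enzyme that amidates such peptides, was at 854 ± 176 and 858 ± 119 CPM. Their log2 fold changes lay between -0.06 and 0.04.

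The patterns of members across the 8 libraries were compared with those of 10936 other genes with a mean of at least 5 CPM. These correlations are between log2(CPM + 1) values over 8 libraries that share the diet difference and the scaling, each is the highest of many, and they carry no test. Egln3 was most like Ldhd, a D-lactate dehydrogenase (Pearson r = 0.961, Spearman rho = 0.905, r = 0.906 without the 2 libraries farthest from the median of Egln3), and Aqp3, the basolateral water channel of principal cells (r = 0.955, rho = 0.952, r = 0.878 without those 2). With the diet means removed, r was 0.878 for Ldhd and 0.806 for Aqp3. High-salt library 4 had the highest Egln3 and the highest Aqp3 (5277 CPM), and normal-salt library 6 the lowest of each (2214 CPM of Aqp3). Among pathway genes Egln3 was most like Ndrg1 (r = 0.828), but with the diet means removed r was 0.151.

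Ndrg1 was most like Tmem63b (r = 0.989) and Nup155 (0.982). Bnip3 was most like Fcgrt, the neonatal Fc receptor (r = 0.984), and Creg1 (0.978). Bnip3 and Ndrg1 ran against each other, at r = -0.951 over all libraries and -0.825 with the diet means removed; this pair was picked after its values were seen. Adm was most like Slc4a9, a bicarbonate transporter of type B intercalated cells (r = 0.959, rho = 0.857, r = 0.891 without the 2 libraries farthest from the median of Adm, and 0.939 with the diet means removed), and St6gal1 (0.953). Slc4a9 was at 230, 202, 133 and 353 CPM in normal-salt libraries 1, 2, 3 and 6 and at 82.5, 55.0, 91.3 and 235 CPM in high-salt libraries 2, 3, 4 and 6. A type B marker of the intercalated cell list, Slc26a4, was at 146, 144, 73.0 and 154 CPM in the same normal-salt libraries. In the same high-salt libraries it was at 44.0, 35.0, 71.1 and 214 CPM. Slc26a4 was highest in high-salt library 6, while Adm and Slc4a9 were highest in normal-salt library 6. The part of type B cells in the Adm values was not tested. The other members were most like Slfn5 and Ptar1 (Hif1a), Mbnl1 and Ptgfrn (Epas1), Ttc7b and Inafm2 (Vhl), AW209491 and Hars2 (Egln1), Eif4e2 and Lrrc75a (Egln2), and Prxl2c and Zfp623 (Bnip3l), with r of 0.924 to 0.960. Within the pathway list the closest were Siah1a to Egln1 (r = 0.772), Cul2 to Egln2 (0.814), Bnip3l to Bnip3 (0.790), Pfkl to Bnip3l (0.838) and Epas1 to Adm (0.825).

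**Figure D4:**
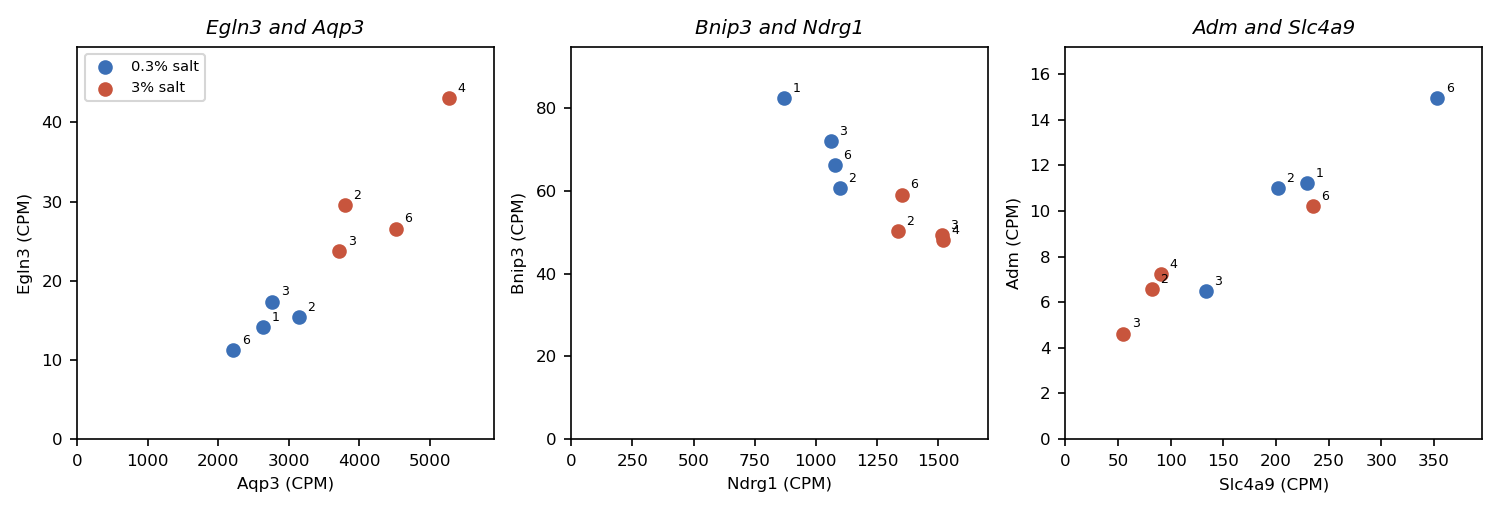
Levels in CPM of Egln3 against Aqp3, Bnip3 against Ndrg1 and Adm against Slc4a9 (both axes from 0), 1 point per library with its number, blue for 0.3% and red for 3% salt. Egln3 and Adm run up with the other gene (r = 0.806 and 0.939 on log2(CPM + 1) with the diet means removed), and Bnip3 runs down as Ndrg1 runs up.

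Markers of other cell types were present at lower levels than those of the duct. The 8 thick ascending limb markers summed to 1054 to 2622 CPM in normal-salt and 564.5 to 3235 CPM in high-salt libraries, the highest in high-salt library 6, and 7 of 8 had lower means under high salt. The marker Kcnj16 was even, at 397 to 546 CPM under normal and 467 to 502 CPM under high salt. It made up 467 of 564.5 CPM in high-salt library 2 and 479 of 583 CPM in high-salt library 3. Umod ran from 355 to 1368 and from 35.7 to 1695 CPM, so the sums understate its spread. Fibroblast and pericyte markers summed to 74.2 to 323 and 84.7 to 194 CPM, macrophage markers to 36.6 to 89.4 and 30.4 to 55.0 CPM, proximal tubule markers to 19.1 to 113 and 21.2 to 152 CPM with Slc5a12 at 0, and thin limb markers to 34.8 to 231 and 66.6 to 282 CPM. Erythrocyte markers summed to 0.34 to 13.6 and 0.0932 to 0.809 CPM. Normal-salt library 1 had the highest fibroblast, macrophage and erythrocyte sums of all libraries. With the mean of the thick ascending limb markers as a covariate the log2 fold changes of Egln3, Ndrg1 and Bnip3 were 0.97, 0.43 and -0.33, and without normal-salt library 1 they were 1.00, 0.41 and -0.35. Immediate early genes, which respond to tissue handling, summed to 4846 to 14395 and 5817 to 7140 CPM, the highest in normal-salt library 6. The part of these cells in the members' values was not tested. A fit that adds a marker mean over 8 libraries cannot give it, and the thick ascending limb mean includes Kcnj16.

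**Figure D5:**
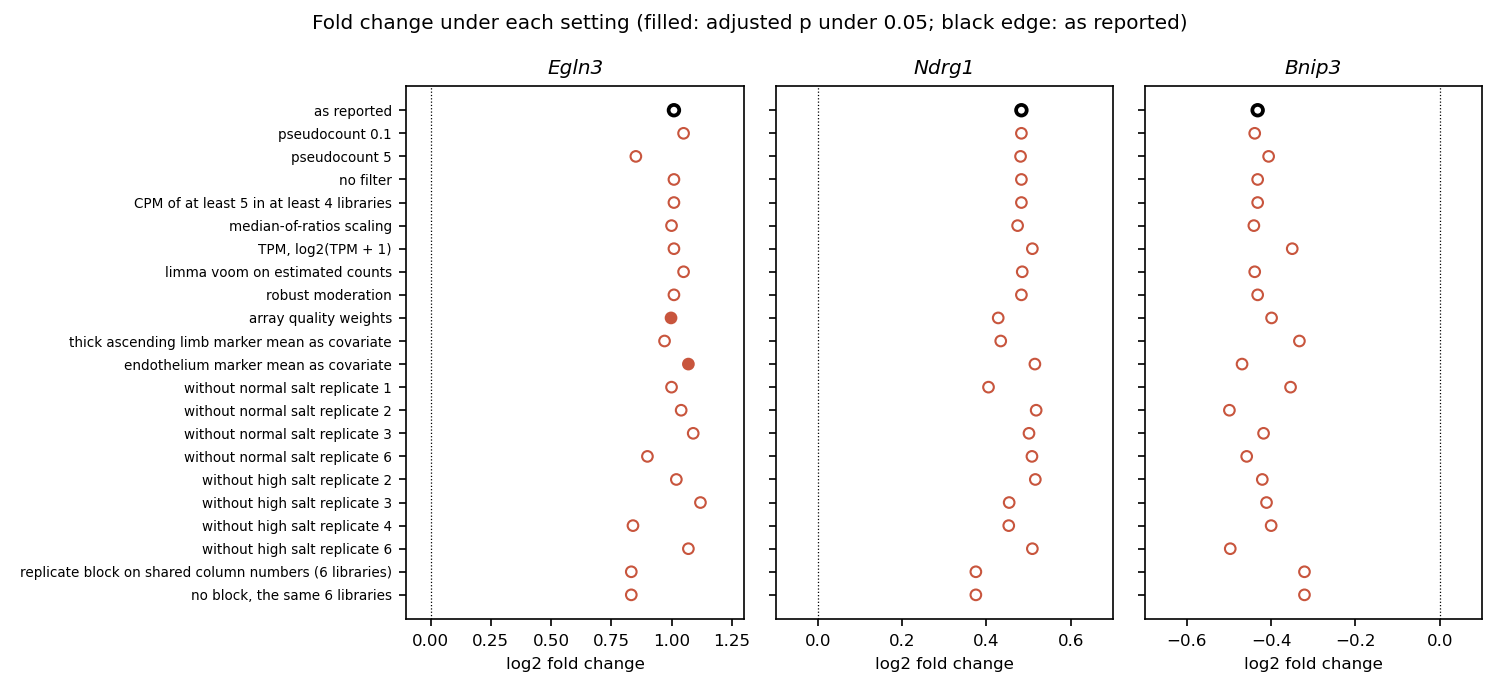
Log2 fold change (horizontal axis) of Egln3, Ndrg1 and Bnip3 as reported (black edge) and under 21 alternative settings (vertical axis), filled where the adjusted p was under 0.05. The values kept their sign in all 21. Their lack of overlap between diets fixed the sign in most settings, apart from the marker covariates and possibly the change of scaling. The kept sign is therefore no test of robustness. The filled points are those of Egln3 with array quality weights and with the endothelial marker mean as a covariate.

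In GENCODE M21 on mm10 all 10 symbols match protein-coding genes. Egln3 spans 54178981 to 54203860 on chromosome 12, Ndrg1 66929318 to 66969640 on chromosome 15, Bnip3 138890836 to 138909519 and Adm 110627661 to 110629820 on chromosome 7. Hif1a spans 73901375 to 73947530 on chromosome 12 and Epas1 86753700 to 86833410 on chromosome 17. Egln1 spans 124908587 to 124949324 on chromosome 8, Egln2 27158658 to 27166802 on chromosome 7, Vhl 113623959 to 113631633 on chromosome 6 and Bnip3l 66985239 to 67008877 on chromosome 14. Antisense genes overlap Hif1a, Ndrg1, Bnip3 and Adm, each at a mean of 0.071 CPM or less, though reads of overlapping genes can be told apart only if the counting used strand. Gm49321 and AC096777.1, which overlap Hif1a and Epas1 on the same strand, were not analysed here. Exons and isoforms cannot be told apart in values summed over a gene.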

How the data were processed

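Per the labels' protocols, each library came from the ducts of 1 mouse, and a stranded kit for mRNA was used. FastQC, Trimmomatic and the build mm10 are named in the submitters' processing notes. The aligner, the counter, its strand setting and the annotation were not given in the sources used here. Deposited by the authors were log2 values of CPM (library-scaled counts) with a shared floor of -5.29, and TPM values that summed to 999838 to 999898 per library. Linear CPM had been assumed when the test was planned. The log2 values were therefore undone, less the floor, and rescaled to a common total per library. The CPM steps gave estimated counts, of which 85.0% to 86.7% of the low values were whole within 0.02 counts. Because the deposited values were named as CPM and not counts, a count-based fit (voom) was run only as an alternative. Column names gave the diet, but their numbers tied no column to a single sample title.

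Genes with at least 1 CPM in at least 4 libraries were kept. The diets were compared on log2(CPM + 1), a scale that understates changes of low genes, with limma 3.58.1 in R 4.3.3 (eBayes with trend, two-sided, Benjamini-Hochberg over all genes, called at an adjusted p under 0.05). The fit was also run on simulated counts with the same relative variability for every gene. Those counts held no differences of library quality or cell mix, so the run does not show how the fit performs under them. Errors are SD over 4 libraries, and intervals of counts cover counting error only. The members, the gene lists and the tests were chosen with earlier results of these data known. Of the pathway list, every called gene was to be named, otherwise up to 3 per role by p and 2 by TPM, with the genes most like each member and the markers described. Alternatives covered pseudocount, filter, scaling, unit, voom, robust moderation, array weights, marker covariates, a replicate block and leaving out each library.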

Additional observations from a re-analysis of the deposited data

Results flagged for a closer look

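Of the 20 sets of 4 values formed by 10 genes and 2 diets, 2 held a library far from the other 3 by Dixon's criterion, where chance flags about 1 in 20. Ndrg1 was at 869 CPM in normal-salt library 1, with a gap to the next value of 0.831 of the range of its diet. Egln1 was at 92.7 CPM in high-salt library 6, with a gap of 0.837 of the range.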

How the results depend on the processing

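The count of genes called among all genes was 11 as reported. It was 0 without a filter on low values, with 1933 of 30343 genes at an unadjusted p under 0.05. It was 22 with robust moderation and 129 with array quality weights. With a marker mean as a covariate it was 36 (thick ascending limb) and 61 (endothelial). Leaving out each library in turn gave 0 to 49: 49 without normal-salt library 1, 1 without normal-salt library 6 and 0 without normal-salt library 3, and, on high salt, 5, 1 and 0 without libraries 2, 3 and 4; at an unadjusted p under 0.05 the fits with 0 calls had 1224 and 908 genes. Of the 10 members 1, Egln3, was called with array quality weights and 1, Egln3, with the endothelial covariate, and 0 in the other 19 alternatives. In those 19, 3 or 4 of the 10 members had an unadjusted p under 0.05. Of all genes tested it was 1933 of 30343 without a filter. In the others it ran from 908 of 13256 (without high-salt library 4) to 1783 of 13242 (without normal-salt library 1). The other pathway genes had 0 calls in all 21. The sign of the Hif1a log2 fold change turned with TPM (0.022), the thick ascending limb covariate (0.0057) and the endothelial covariate (0.012), and it was -0.12 to 0.014 over the libraries left out. That of Vhl turned with TPM (-0.011), was -0.051 to 0.083 over the libraries left out, and was -0.015 in the 6 libraries whose column numbers both diets share, with or without a block. The other 8 members kept their sign in all 21 alternatives, which for Egln3, Ndrg1 and Bnip3 their lack of overlap fixed in most of them. The replicate block on those 6 libraries gave 35 called genes, where the same libraries without a block, an alternative chosen after seeing the data, gave 22. Deviations of same-numbered libraries correlated at 0.208, 0.287 and 0.002, and those of differently numbered libraries at -0.275 to 0.296. The numbers were not taken to pair mice, since no label says so, but these values do not settle whether they do. By CPM per length of the longest transcript Egln2 ranked 3 and Bnip3l 5 among the members, and Vhl 9 and Adm 10. The cause of these differences was not tested. At this depth a count of 0 allows 0.0319 to 0.0463 CPM per library, and the smallest estimated count behind a member's value was 347.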
